A study of Homo sapiens with 8 samples.

Results

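The expression of 44 interferon-stimulated genes was described in RNA-seq libraries of the Burkitt lymphoma line Raji, which is rituximab sensitive, and of Raji-4RH, a rituximab resistant line derived from it. Members were picked by gene symbol from a list of genes that interferon is known to induce. The list was chosen with earlier results of these data known. All 44 were found among the 18143 gene labels that could be given their values, out of 63967 label rows in the table. Cells of each line were treated with DMSO, the solvent control, or with 3 μM chidamide, an inhibitor of histone deacetylases, for 24 h, and were collected by flow sorting. Each of the 4 groups (Raji DMSO, Raji chidamide, Raji-4RH DMSO and Raji-4RH chidamide) held 2 replicate libraries. By their labels the 8 libraries differ by line, agent and replicate number, and the labels do not say whether batches differed. Raji-4RH is 1 selected line, so a difference between Raji and Raji-4RH is a difference between these lines and cannot be read as a general feature of rituximab resistance.

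Interferons are secreted signals of virus infection. Type I interferons bind the receptor chains IFNAR1 and IFNAR2, the kinases JAK1 and TYK2 then activate a complex of transcription factors, STAT2 and IRF9 among them, that binds the interferon-stimulated response element in the promoters of target genes. The products include sensors of foreign RNA, proteins that block viral translation or degrade viral RNA, and proteins of the membrane that hinder virus entry or release. B cells can both make and answer interferon.

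The authors deposited FPKM, the reads of a gene scaled by its length and by the reads of the library. Library totals lay between 13991697 and 21193441 reads, with the smallest in Raji-4RH chidamide replicate 1. The 2 libraries of a group differed by more than counting noise, with a mean chi-square per gene from 1.78 in Raji chidamide to 11.8 in Raji-4RH chidamide, so none was a copy of another. Nothing in the labels says whether replicates came from separate cultures, so p-values measure the spread between these libraries, which may be technical. In part of the table the values stand several rows below their labels, and they were moved back to their labels by blocks of rows. For 13 members no move was needed, and for the other 31 the shift used was also the one that best matched levels predicted from the names and descriptions of the genes around them. Such predictions correlated with the levels of held-out rows at 0.468. The placing of STAT2 stayed uncertain, because only 3 labels lie between it and the edge of its block. USP18, IFITM2, BST2 and PLSCR1 also lie at most 39 labels from an edge. For these 4, the labels in between matched the block used better than the neighbouring block. In the neighbouring row, IFITM2 would be at 0.104 and 0.0917 FPKM in Raji-4RH DMSO. All 10 markers of B cells were expressed, between 5.32 and 1320 FPKM. The 4 placed T cell markers summed to between 0.0712 and 4.89 FPKM, the 4 NK cell markers to between 1.32 and 6.19, the 6 myeloid markers to between 0.917 and 11.9, and the 5 markers of fibroblasts or epithelium to between 0.0703 and 2.37. The single placed marker of plasmacytoid dendritic cells, which are professional interferon producers, was at 0 in 7 of the 8 libraries and at 0.0922 FPKM in the other one.

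The letters of the response element core were common in the promoters of these genes. The pattern GAAA, any 2 bases, GAAA was searched on both strands from 250 bases before to 50 bases after the transcript start in RefSeq promoters of GRCh38.p14. It occurred in 23 of the 35 members with a promoter in the table (65.7%), compared with 1195 of 27305 genes overall (4.38%) and 1255 of 35116 single promoters (3.57%). Among the members, PARP9 and DTX3L are both counted through the same site, read from opposite strands. The pattern TTC, any 3 bases, GAA of the gamma-activated site, which reads the same on both strands, occurred in 9 of the 35 members (25.7%) and in 2560 of 27305 genes (9.38%). The 5 promoters shown are those of the members with the largest chidamide response in Raji-4RH among the named members that hold the core, and the capitals mark its matches on either strand.
IFI6, minus strand, chr1:27672143-27672442: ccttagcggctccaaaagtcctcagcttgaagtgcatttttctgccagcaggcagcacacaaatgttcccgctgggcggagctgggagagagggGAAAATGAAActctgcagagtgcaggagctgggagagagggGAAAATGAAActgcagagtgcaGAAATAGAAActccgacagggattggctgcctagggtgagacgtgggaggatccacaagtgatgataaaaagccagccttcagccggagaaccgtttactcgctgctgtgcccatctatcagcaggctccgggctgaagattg
OAS3, plus strand, chr12:112938224-112938523: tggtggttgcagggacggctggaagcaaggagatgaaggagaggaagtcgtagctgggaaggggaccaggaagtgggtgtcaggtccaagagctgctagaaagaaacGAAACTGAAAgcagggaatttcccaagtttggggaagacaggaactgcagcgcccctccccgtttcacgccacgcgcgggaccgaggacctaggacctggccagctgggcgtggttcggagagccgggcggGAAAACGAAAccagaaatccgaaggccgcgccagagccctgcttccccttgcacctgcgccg
IFI44, plus strand, chr1:78649539-78649838: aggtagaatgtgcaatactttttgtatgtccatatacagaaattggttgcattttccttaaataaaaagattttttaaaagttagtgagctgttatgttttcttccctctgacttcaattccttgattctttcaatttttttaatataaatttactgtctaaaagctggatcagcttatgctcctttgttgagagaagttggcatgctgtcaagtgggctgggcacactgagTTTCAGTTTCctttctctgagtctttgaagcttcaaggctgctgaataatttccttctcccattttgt
IFIT3, plus strand, chr10:89327747-89328046: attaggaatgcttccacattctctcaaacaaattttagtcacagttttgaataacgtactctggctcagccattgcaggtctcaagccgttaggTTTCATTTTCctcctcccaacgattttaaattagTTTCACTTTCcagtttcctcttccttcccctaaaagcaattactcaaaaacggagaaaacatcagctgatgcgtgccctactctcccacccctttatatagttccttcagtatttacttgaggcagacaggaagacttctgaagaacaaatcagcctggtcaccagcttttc
IFITM1, plus strand, chr11:313790-314089: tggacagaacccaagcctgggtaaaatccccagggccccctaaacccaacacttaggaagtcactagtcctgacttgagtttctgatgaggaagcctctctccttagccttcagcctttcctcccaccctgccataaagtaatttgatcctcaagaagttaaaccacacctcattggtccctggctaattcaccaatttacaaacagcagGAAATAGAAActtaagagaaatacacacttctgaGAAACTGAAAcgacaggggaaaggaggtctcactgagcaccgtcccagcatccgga
The IFI6 promoter holds the core 3 times, with first bases at -156, -115 and -93 from the start. Each promoter is shown for the more upstream start where RefSeq has several, and IFITM1, which fell with chidamide, carries the core as well, at -40 and -6. Of the members called higher with chidamide in Raji-4RH that have a promoter in the table, 17 of 23 hold the core (73.9%), and of those called lower or not called, 2 of 5 do. These matches describe the letters of the window and are not evidence that a factor bound there.

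**Figure D1:**
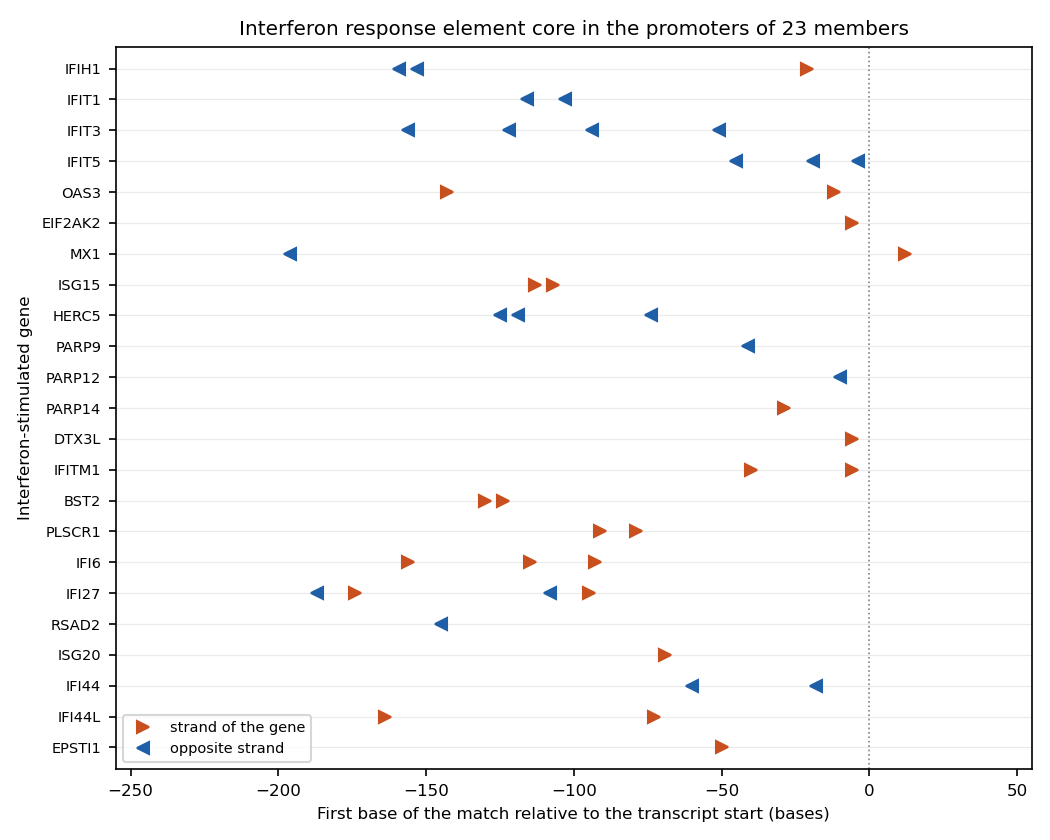
Distance in bases from the transcript start to the first base of each match to the response element core, for the 23 members that hold it; a right-pointing mark is a match on the strand of the gene and a left-pointing mark one on the opposite strand. All but 1 of the matches begin before the start, from -196 in MX1 to -4 in IFIT5, and the exception is the match of MX1 at 12.

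Differences were tested on log2(FPKM + 1) with limma over the 10710 genes that reached at least 1 FPKM in at least 2 libraries, with Benjamini-Hochberg adjustment over all of them, and a gene was called at an adjusted p-value under 0.05. For genes of low FPKM, the added 1 makes the log2 change smaller than that of the level itself. The filter kept 35 members. Of these, 22 reached 1 FPKM in at least 2 DMSO libraries, and the other 13 passed mainly through chidamide libraries, so that counts over the 35 are a description and not support for a response. These 13 were DDX58, DHX58, IFIT1, IFIT2, IFIT3, IFIT5, OAS3, OASL, PARP14, SAMD9L, IFI44, IFI44L and EPSTI1. Their adjusted p-values for chidamide and for the difference of effects are likewise a description, because the filter kept them mainly through chidamide libraries. For a single gene, 2 libraries against 2 allow a two-sided exact permutation p-value of 0.333 at the smallest, so each call borrows its estimate of the spread from other genes through limma.

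**Figure D2:**
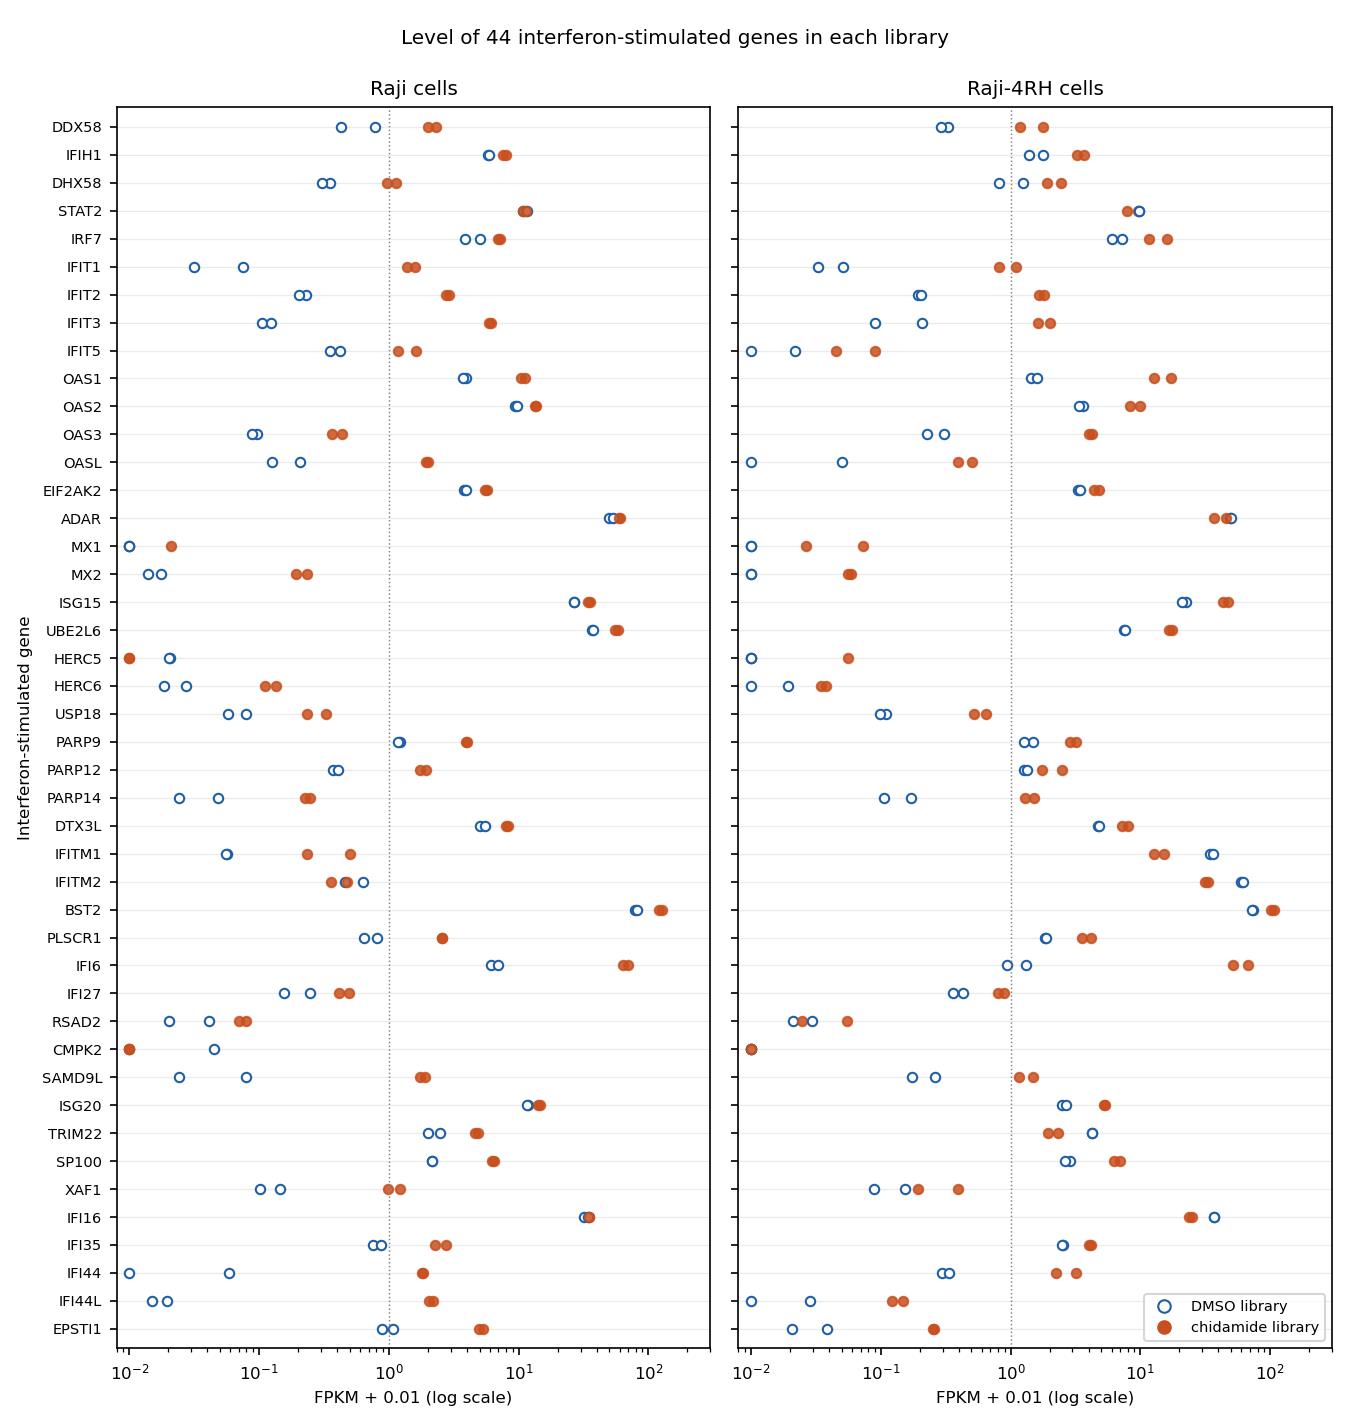
FPKM of the 44 members in each library, with 0.01 added, on a log axis, in Raji (left) and Raji-4RH (right); open circles are DMSO libraries, filled circles are chidamide libraries, and the dotted line marks 1 FPKM. The chidamide libraries lie to the right of both DMSO libraries for 39 members in Raji and for 35 in Raji-4RH, of which 33 and 29 were tested, beside 43.5% and 49.7% of all genes tested.

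In Raji-4RH cells, chidamide treatment raised 28 of the 35 tested members and lowered 5, while 43.3% of all genes tested rose and 31.6% fell. Changes of at least 1 on the log2 scale were seen for 11 members upward and 1 downward, against 10.1% and 5.05% of all genes. The median log2 change of the members was 0.765 and that of all genes 0.093. IFI6 changed most, by 4.83, followed by OAS1 with 2.66 and OAS3 with 2.02. The 5 members that fell were IFITM1, IFITM2, TRIM22, IFI16 and ADAR. Quantile normalization moved the median of all genes from 0.093 to -0.022 and that of the members from 0.765 to 0.341, with 19 members higher and 4 lower, and it moved the shares of all genes called to 34.7% higher and 37.9% lower. The calls lost under it in Raji-4RH were those of DDX58, DHX58, IFIT1, OASL, EIF2AK2, ADAR, PARP12, SAMD9L, IFI44L and EPSTI1, and in Raji those of DHX58, OAS3, PARP14 and IFITM1. Without any filter all 44 members could be tested, and 31 were called higher and 4 lower in Raji-4RH, and 36 higher and 0 lower in Raji. The shares of all 16843 genes in that fit were 42% higher and 19.9% lower in Raji-4RH, and 23.2% and 17.3% in Raji.

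In Raji cells, 31 of the 35 tested members rose and 0 fell, beside 31.5% of all genes higher and 28.5% lower. No member was lower at an unadjusted p-value under 0.05 either, by limma on FPKM or by limma voom on the recovered reads without a filter, a fit chosen after seeing the data that gives the voom values below. With quantile normalization, 1 member was called lower in Raji, beside 32% of all genes. It was IFITM2 (log2 change -0.40, limma adjusted p = 0.00107), which was below 1 FPKM in every Raji library. A rise of at least 1 on the log2 scale was called for 14 members, against 4.37% of all genes, and a fall of that size for 0 members, against 0.859%. The median log2 change was 0.791 for the members and 0.017 for all genes. Here the largest changes were those of IFI6 with 3.18, IFIT3 with 2.66 and IFIT2 with 1.66. Among the 22 members with at least 1 FPKM in at least 2 DMSO libraries, 18 rose and 0 fell in Raji, and 16 rose and 5 fell in Raji-4RH. No share of all genes under the same condition is given, so these counts are a description. The sums of the T cell, NK cell, myeloid and fibroblast or epithelium markers given above were also higher in every chidamide library than in both DMSO libraries of the same line. For the myeloid markers in Raji they were 10.8 and 11.9 FPKM against 1.12 and 1.04. The fibroblast or epithelium sum in Raji rose through COL1A1, from a mean of 0.164 to 2.21 FPKM. EPCAM (0.0396 to 0), KRT8 (0.146 to 0.0105) and KRT18 (0.156 to 0.0224) went the other way there. The part of these markers in the result was not tested. In bulk RNA, more cells with a transcript and more of it per cell cannot be told apart.

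**Figure D3:**
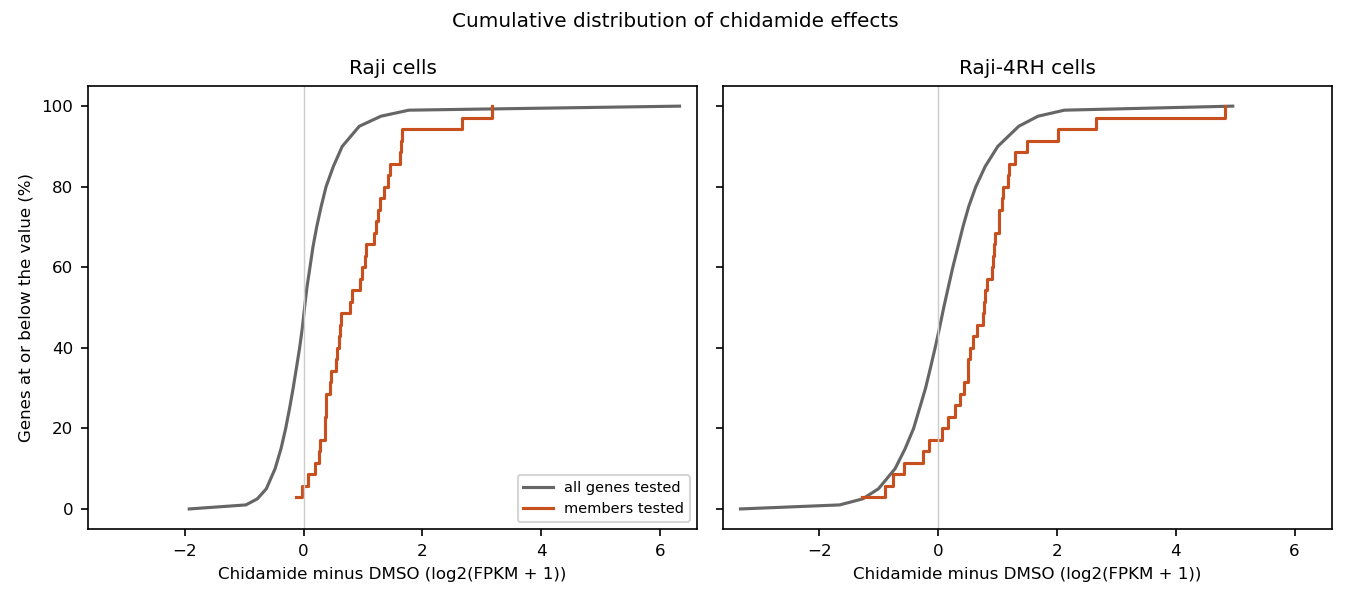
Cumulative share of genes (percent) by the log2 change with chidamide, in Raji (left) and Raji-4RH (right); the grey line is all 10710 genes tested and the orange steps are the 35 tested members. The member curve lies to the right of the grey line over most of its range in both lines, with medians of 0.791 and 0.765 against 0.017 and 0.093.

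The cytosolic sensors of viral RNA were called higher in both lines. With quantile normalization, the changes of DDX58 in Raji-4RH (0.23, adjusted p = 0.202) and of DHX58 in Raji-4RH (0.13, adjusted p = 0.357) and in Raji (0.22, adjusted p = 0.150) were no longer called by limma. DDX58, the gene of RIG-I, went from 0.779 and 0.422 FPKM with DMSO to 1.98 and 2.28 with chidamide in Raji, and from 0.318 and 0.282 to 1.17 and 1.78 in Raji-4RH. Both chidamide libraries were above both DMSO libraries in each line, and the log2 changes of 0.98 ± 0.136 (SE, limma adjusted p = 3.8e-04) in Raji and 0.92 ± 0.136 (adjusted p = 3.2e-04) in Raji-4RH had a difference of -0.06 ± 0.193 that did not pass the test (adjusted p = 0.818). IFIH1, the gene of the sensor MDA5, went from 5.77 and 5.93 to 7.95 and 7.63 FPKM in Raji and from 1.78 and 1.38 to 3.65 and 3.23 in Raji-4RH. Its level in the DMSO libraries was thus lower in Raji-4RH, with a log2 difference of -1.42 (adjusted p = 1.2e-06), and its rise was larger there, with a difference of the effects of 0.43 (adjusted p = 0.0188). That difference was 0.12 with quantile normalization (adjusted p = 0.522). It also missed the threshold without Raji DMSO replicate 2 (adjusted p = 0.0613), Raji chidamide replicate 2 (adjusted p = 0.0672) or Raji-4RH DMSO replicate 2 (adjusted p = 0.0593). DHX58, the gene of LGP2, a relative of both sensors that lacks signalling domains, measured 0.343 and 0.297 FPKM in Raji DMSO against 1.12 and 0.962 with chidamide, and 0.805 and 1.24 in Raji-4RH DMSO against 1.90 and 2.43. It rose by 0.63 in Raji (adjusted p = 0.00174) and by 0.65 in Raji-4RH (adjusted p = 9.4e-04).

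Of the transcription factors among the members, IRF7, which amplifies interferon production, rose from 5.03 and 3.87 to 6.98 and 7.16 FPKM in Raji and from 7.18 and 6.07 to 11.6 and 16.1 in Raji-4RH. The log2 changes were 0.57 ± 0.151 (SE, limma adjusted p = 0.0106) and 0.95 ± 0.151 (adjusted p = 4.7e-04), and the libraries of a line did not overlap. The IRF7 call in Raji was lost without Raji DMSO replicate 2 (0.42, adjusted p = 0.0875) or Raji chidamide replicate 2 (0.56, adjusted p = 0.0537). STAT2, a subunit of the complex that binds the response element, has values that depend on its placing. In the row that its block gives, it measured 10.9 and 11.7 FPKM with DMSO and 10.9 and 11.4 with chidamide in Raji, and 9.69 and 9.77 in Raji-4RH DMSO and 9.51 and 7.87 in Raji-4RH chidamide. In the row that the neighbouring block gives, the same libraries held 6.23 and 6.72, 11.5 and 11.4, 7 and 6.04, and 16.8 and 17.8. The log2 changes were -0.02 and -0.15 by the first placing and 0.74 and 1.29 by the second, so no direction was read for STAT2, and it is counted as not called.

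The IFIT family, whose products bind viral RNA and block its translation, was low in DMSO, with at most 0.408 FPKM, and rose with chidamide in all 4 members in Raji and in 3 in Raji-4RH. IFIT3 was read 5 and 6 times in the Raji DMSO libraries and 322 and 334 times with chidamide, which is 0.0959 and 0.113 FPKM against 5.92 and 6.07. In Raji-4RH it went from 0.0808 and 0.197 to 2.00 and 1.62 FPKM. Its log2 change was 2.66 ± 0.081 (SE, limma adjusted p = 2.1e-07) in Raji and 1.30 ± 0.081 (adjusted p = 1.7e-06) in Raji-4RH. Counted in reads per library total, IFIT3 rose 57.4-fold in Raji (95% interval 31.9 to 116, counting error only) and 12.6-fold in Raji-4RH (7.39 to 23).
IFIT2 rose from 0.222 and 0.194 to 2.89 and 2.73 FPKM in Raji and from 0.182 and 0.196 to 1.64 and 1.80 in Raji-4RH, with log2 changes of 1.66 and 1.19. IFIT1 rose by 1.25 and 0.91 on the log2 scale and had 8 and 6 reads in all in the DMSO groups of Raji and Raji-4RH. IFIT5 rose from 60 to 231 reads in Raji, and in Raji-4RH it had 1 read in the DMSO group and 8 in the chidamide group, a change that was not called on the log2(FPKM + 1) scale (adjusted p = 0.465) and was called by limma voom on the reads (log2 change 2.54, adjusted p = 0.0127). All 4 members of the family differed between the lines in the direction of a smaller change in Raji-4RH on the log2(FPKM + 1) scale. By limma voom on the reads the difference was -2.03 for IFIT3 (adjusted p = 0.0170). For IFIT1 it was -0.37 (adjusted p = 0.710) and for IFIT2 -0.57 (adjusted p = 0.246), of the same sign and no longer called. For IFIT5 it turned to 0.68 (adjusted p = 0.544).

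The OAS family, enzymes that sense double-stranded RNA and activate RNase L, rose in all 4 members in both lines. OAS1, at chr12:112906777-112933222 in GENCODE v29 on GRCh38, went from 3.94 and 3.74 FPKM with DMSO to 11.2 and 10.4 with chidamide in Raji, and from 1.43 and 1.60 to 12.8 and 17.2 in Raji-4RH. Raji-4RH thus started lower and ended higher. The log2 change was 1.28 ± 0.116 (SE, limma adjusted p = 3.5e-05) in Raji and 2.66 ± 0.116 (adjusted p = 2.8e-07) in Raji-4RH, and the difference of 1.37 passed the test (adjusted p = 3.0e-04). OAS3 was nearly absent in Raji, at 0.0859 and 0.0782 FPKM with DMSO and 0.353 and 0.425 with chidamide. In Raji-4RH it went from 0.297 and 0.217 to 3.98 and 4.21 FPKM, a 16.1-fold rise in reads (95% interval 12.9 to 20.4), compared with 4.74-fold in Raji (3.12 to 7.46). The effects differed by 1.66 ± 0.0887 (SE, limma adjusted p = 8.5e-06).
OAS2 was higher in Raji, with 9.41 and 9.66 FPKM in DMSO against 3.60 and 3.38 in Raji-4RH. It rose to 13.4 and 13.7 in Raji and to 8.39 and 10.0 in Raji-4RH, by 0.47 and 1.18 on the log2 scale, and the effects differed by 0.71 (adjusted p = 0.00115). OASL, a member without the enzyme activity of the others, rose from 0.115 and 0.198 to 2.00 and 1.91 FPKM in Raji and from 0 and 0.0402 to 0.386 and 0.494 in Raji-4RH. The smaller log2 change of OASL in Raji-4RH, 0.50 against 1.35, turned to a larger one by limma voom on the reads, where the difference was 0.92 and was not called (adjusted p = 0.402).

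Of the kinase and the editor of double-stranded RNA, the kinase rose in both lines and the editor fell in Raji-4RH. EIF2AK2, the gene of PKR, which stops translation when it binds double-stranded RNA, rose from 3.81 and 3.91 to 5.72 and 5.51 FPKM in Raji and from 3.32 and 3.42 to 4.39 and 4.82 in Raji-4RH. The log2 changes of 0.44 ± 0.0607 and 0.36 ± 0.0607 (SE, limma adjusted p = 3.4e-04 and 7.1e-04) were small, and no library of one treatment overlapped the other. ADAR, which edits adenosines in such RNA, fell in Raji-4RH from 48.9 and 49.8 to 37.2 and 45.9 FPKM (log2 change -0.25, adjusted p = 0.0324). That call was lost without a filter, with quantile normalization, and when either Raji chidamide library, either Raji-4RH DMSO library or Raji-4RH chidamide replicate 1 was left out. In Raji the ADAR values were 50 and 53.5 with DMSO and 60.1 and 59.2 with chidamide (log2 change 0.20, adjusted p = 0.0833).

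Of the ISG15 system, which attaches the ubiquitin-like protein ISG15 to other proteins, the modifier and its E2 enzyme were well expressed and the ligases were not. UBE2L6, the E2 enzyme, measured 37.1 and 37.7 FPKM in Raji DMSO and 7.52 and 7.58 in Raji-4RH DMSO, so that it was lower in Raji-4RH (log2 difference -2.17 ± 0.0527, SE, limma adjusted p = 7.2e-09). With chidamide it reached 58.7 and 55.3 in Raji and 16.7 and 17.4 in Raji-4RH. The rise was 0.59 in Raji and 1.08 in Raji-4RH on the log2 scale. ISG15 itself, with 942 bases of exon per the file, rose from a mean of 26.8 to 34.8 FPKM in Raji and from 21.6 to 45.1 in Raji-4RH, by 0.37 and 1.02 on the log2 scale. HERC5, HERC6 and USP18, the main ISG15 ligase, its relative and the enzyme that removes ISG15, stayed below 1 FPKM in every library and were not tested. USP18 had 5 reads in the Raji DMSO group and 24 with chidamide, and 8 and 39 in Raji-4RH. HERC6 had 3 and 27 reads in Raji and 1 and 5 in Raji-4RH. HERC5 had at most 4 reads in any library.

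The ADP-ribosyltransferases PARP9, PARP12 and PARP14 and the ubiquitin ligase DTX3L, the partner of PARP9, rose in both lines, in all 4 genes. PARP9 and DTX3L are neighbours on opposite strands of chromosome 3 whose exons overlap by 2.4% and 3.7% of their bases. The core pattern near their starts is the same site, read from opposite strands. PARP9 rose by 1.19 on the log2 scale in Raji and by 0.76 in Raji-4RH, and DTX3L by 0.54 and 0.59. PARP14 had 11 reads in the Raji DMSO group and 98 with chidamide, and 55 and 483 in Raji-4RH, which gave ratios of 8.58 (95% interval 4.59 to 17.7) and 10.8 (8.18 to 14.6). The PARP14 call in Raji was lost without Raji DMSO replicate 2 or Raji chidamide replicate 1. PARP12 rose by 1.04 in Raji and by 0.43 in Raji-4RH, where its DMSO level was already higher, at 1.26 and 1.34 FPKM against 0.363 and 0.395.

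The membrane proteins held the largest difference between the lines. IFITM1, at chr11:313506-315272, which restricts virus entry at the cell surface, had 1 read in each Raji DMSO library and 5 and 11 reads with chidamide. In Raji-4RH it measured 34.6 and 36.3 FPKM with DMSO and fell to 15.3 and 12.8 with chidamide. The baseline difference was 5.12 ± 0.106 (SE, limma adjusted p = 3.1e-09) and the change with chidamide in Raji-4RH was -1.28 ± 0.106 (adjusted p = 8.8e-06). IFITM2, at chr11:307631-315272, which acts on viruses in endosomes, was at 0.624 and 0.45 FPKM in Raji DMSO and at 59.6 and 62.2 in Raji-4RH DMSO, a difference of 5.33 ± 0.0757 (adjusted p = 4.9e-10). It fell to 31.4 and 33.5 in Raji-4RH with chidamide (log2 change -0.89, adjusted p = 1.0e-05) and measured 0.346 and 0.467 in Raji chidamide. IFITM1 and IFITM2 share exon bases, 32.5% of those of IFITM1 and 22.7% of those of IFITM2, on the same strand and have closely similar coding sequences, so the split of reads between them is uncertain.
BST2, which tethers budding viruses to the cell, was the most abundant member in every library. It rose from 78.9 and 81.5 to 121 and 127 FPKM in Raji and from 73.3 and 72.9 to 108 and 101 in Raji-4RH, by 0.62 and 0.51 on the log2 scale, and their difference of -0.11 ± 0.0792 did not pass the test (adjusted p = 0.264). PLSCR1, a scramblase that promotes the interferon response, rose by 1.05 in Raji and by 0.77 in Raji-4RH.

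IFI6, a small hydrophobic protein of the endoplasmic reticulum and mitochondria that counters apoptosis, at chr1:27666061-27672218, showed the largest chidamide response of all members in each line. In Raji it went from 6.09 and 6.94 FPKM to 70.2 and 63.6, and in Raji-4RH from 0.925 and 1.31 to 51.6 and 67.0. Raji-4RH therefore began lower, with a baseline log2 difference of -1.83 ± 0.133 (SE, limma adjusted p = 3.9e-06). The log2 change was 3.18 ± 0.133 (adjusted p = 6.4e-07) in Raji and 4.83 ± 0.133 (adjusted p = 4.0e-08) in Raji-4RH, and the difference of 1.65 passed the test (adjusted p = 2.3e-04). In reads this was a 10.3-fold rise (95% interval 8.94 to 11.8) and a 53.5-fold rise (39 to 75.5). By that measure IFI6 was not the largest in Raji, where IFI44L rose 289-fold from 3 reads in the DMSO group. IFI27, of the family of IFI6, stayed under 1 FPKM and was not tested. Its reads went from 32 to 76 in Raji and from 64 to 113 in Raji-4RH.

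Among the other effectors, TRIM22 was the member that went opposite ways in the 2 lines with both changes called. TRIM22, an E3 ubiquitin ligase that represses viral transcription, rose in Raji from 2.00 and 2.49 to 4.84 and 4.59 FPKM and fell in Raji-4RH from 4.25 and 4.26 to 1.92 and 2.31. The log2 changes were 0.82 ± 0.0887 (SE, limma adjusted p = 9.4e-05) and -0.76 ± 0.0887 (adjusted p = 7.4e-05), and the difference of -1.58 passed the test (adjusted p = 3.9e-05). IFITM1 shares this pattern by its calls, but its rise in Raji rests on 2 reads in the DMSO group and 16 with chidamide. The IFITM1 call in Raji was lost with quantile normalization (0.16, adjusted p = 0.226) and without either Raji DMSO library or Raji chidamide replicate 2 (adjusted p = 0.0682 to 0.123). Of the exon bases of TRIM22, 10.7% are also exon of OR56B1 on the same strand. ISG20, an exonuclease for single-stranded RNA, was lower in Raji-4RH DMSO, with 2.49 and 2.65 FPKM against 11.8 and 11.6 in Raji DMSO (log2 difference -1.83, adjusted p = 2.0e-08). With chidamide it reached 14.7 and 14.2 in Raji and 5.36 and 5.2 in Raji-4RH. SAMD9L, which restrains growth and translation, went from 0.0142 and 0.0696 to 1.90 and 1.73 FPKM in Raji and from 0.254 and 0.165 to 1.15 and 1.48 in Raji-4RH, by 1.43 and 0.94 on the log2 scale.
SP100, a protein of PML nuclear bodies, rose from 2.16 and 2.15 to 6.51 and 6.22 FPKM in Raji and from 2.86 and 2.60 to 6.21 and 6.91 in Raji-4RH. XAF1, which promotes apoptosis, was not tested. It had 30 reads in the Raji DMSO group and 300 with chidamide, and 29 and 64 in Raji-4RH, and 38.3% of its exon bases are also exon of PRAL on the opposite strand, which this unstranded library kit cannot tell apart. RSAD2, the gene of viperin, had at most 7 reads in a library and CMPK2 at most 3. The MX GTPases, which trap viral nucleocapsids, were not tested either. MX2 had 3 reads in the Raji DMSO group and 110 with chidamide, a ratio of 35.3 (95% interval 11.8 to 174). In Raji-4RH it had 0 and 20 reads, at least 8.22-fold higher when the DMSO group is set to the 3 reads that a count of 0 allows. MX1 had 0 reads in both DMSO groups, 2 with chidamide in Raji and 12 in Raji-4RH, and the last was at least 4.93-fold higher by the same floor.

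Of the remaining IFI genes and EPSTI1, IFI35, IFI44, IFI44L and EPSTI1 were called higher in both lines, while IFI16 fell in Raji-4RH. The IFI44L change in Raji-4RH was small (0.16, limma adjusted p = 0.0341). Its call was lost with median-centred libraries (0.08), a replicate block (adjusted p = 0.0535) or without either Raji-4RH DMSO library or Raji-4RH chidamide replicate 2. With quantile normalization it turned to -0.012, and that of EPSTI1 in Raji-4RH to -0.022. IFI44L had 1 and 2 reads in the Raji DMSO libraries and 465 and 436 with chidamide, which is 0.00495 and 0.00970 FPKM against 2.20 and 2.04. In Raji-4RH it had 0 and 4 reads with DMSO and 16 and 26 with chidamide. The read ratio was 289 (95% interval 98.6 to 1400) in Raji and 12.9 (4.70 to 49.7) in Raji-4RH. Its effects differed by -1.48 on the log2(FPKM + 1) scale (limma adjusted p = 9.0e-06) and by -3.71 by limma voom (adjusted p = 0.0138). IFI44, its neighbour on chromosome 1, went from 0 and 0.0487 to 1.79 and 1.81 FPKM in Raji and from 0.288 and 0.324 to 2.24 and 3.17 in Raji-4RH, by 1.45 and 1.49. The read ratios of IFI44 were 73.2 in Raji (95% interval 19.9 to 610, from 2 reads in the DMSO group) and 9.02 in Raji-4RH (5.92 to 14.3), and by voom the effects differed by -2.93 (adjusted p = 0.0140). EPSTI1 was lower in Raji-4RH DMSO, at 0.0108 and 0.0287 FPKM against 0.884 and 1.06 in Raji DMSO. It reached 4.92 and 5.33 in Raji and 0.247 and 0.243 in Raji-4RH with chidamide. The smaller log2 change of EPSTI1 in Raji-4RH, 0.29 against 1.64, became larger by voom on the reads, with a difference of 1.02 that was not called (adjusted p = 0.162).
IFI35, which forms a complex with NMI, measured 0.744 and 0.855 FPKM in Raji DMSO and 2.51 and 2.49 in Raji-4RH DMSO (log2 difference 0.96, adjusted p = 8.8e-06). With chidamide it was at 2.75 and 2.24 in Raji and at 3.98 and 4.18 in Raji-4RH. IFI16, a nuclear sensor of DNA, was at 31.7 and 34.0 FPKM in Raji with DMSO and at 34.7 and 34.6 with chidamide. In Raji-4RH it fell from 37.0 and 36.9 to 23.7 and 25.0 (log2 change -0.58, adjusted p = 1.7e-05).

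The chidamide effects in the 2 lines share no library, and their difference was tested directly as the effect in Raji-4RH minus that in Raji. Of the 35 members, 9 had a higher effect in Raji-4RH and 16 a lower one, while 27.2% and 21.7% of all genes did. A difference of at least 1 on the log2 scale was called for 3 members upward, OAS3, IFI6 and OAS1, and for 5 downward, IFITM1, TRIM22, IFI44L, IFIT3 and EPSTI1, beside 4.07% and 2.24% of all genes. The median difference was -0.205 for the members and 0.038 for all genes. In all, 28 members were called higher in both lines, 2 were higher in Raji and lower in Raji-4RH, and 3 were lower in Raji-4RH without a call in Raji. No share of all genes is given beside these joint calls, so they only describe the members. A given ratio gives a smaller difference on the log2(FPKM + 1) scale for a gene with lower FPKM. By limma voom on the reads, 18 of the 25 called differences kept their call and direction, and those of IFIT1, IFIT2, IFIT5, OASL, PARP14, IFITM2 and EPSTI1 did not. With quantile normalization the calls of IFIH1, ADAR, PARP14 and IFITM2 were lost.

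**Figure D4:**
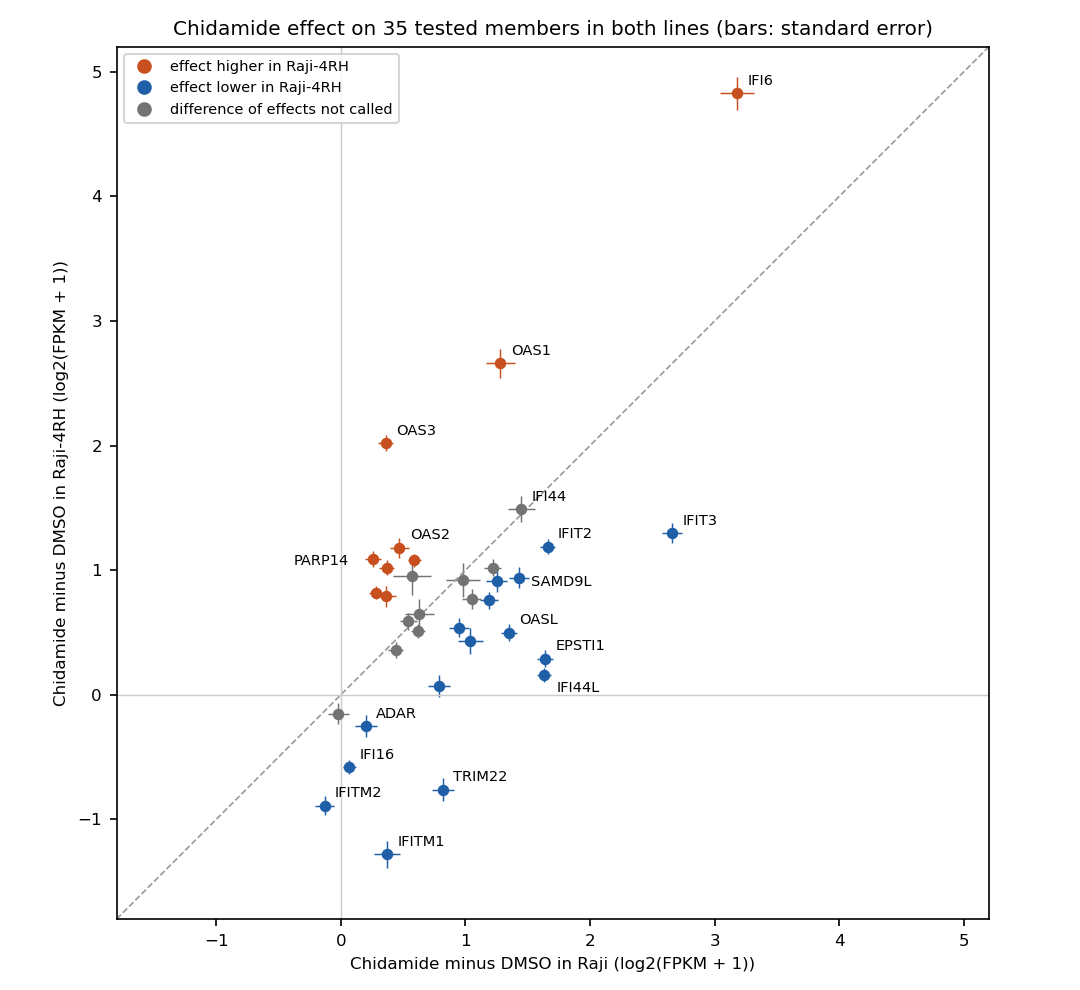
Log2 change with chidamide in Raji (x axis) and in Raji-4RH (y axis) for the 35 tested members, with standard errors as bars; the dashed line marks equal effects, and the colours give the test of the difference. IFI6, OAS1 and OAS3 lie above the line, IFIT3, IFI44L and EPSTI1 below it, and 5 members lie below 0 for Raji-4RH with a call there.

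Relative to Raji, 13 of the 35 members were higher in Raji-4RH and 11 lower, while 41.2% and 32.4% of all genes were. At a log2 difference of at least 1, 2 members were higher, IFITM2 and IFITM1, and 5 were lower, UBE2L6, IFI6, ISG20, IFIH1 and OAS2, beside 8.53% and 7.37% of all genes. The median difference was -0.016 for the members and 0.063 for all genes. The split depended on the scaling, with 11 higher and 15 lower for median-centred libraries (38.2% and 35.4% of all genes) and 9 higher and 14 lower after quantile normalization (35% and 35.4% of all genes). Without replicate 1 of Raji-4RH DMSO, 7 members were called higher, beside 36.2% of all genes. This comparison uses the DMSO libraries of both chidamide comparisons, so it is not independent of them.

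**Figure D5:**
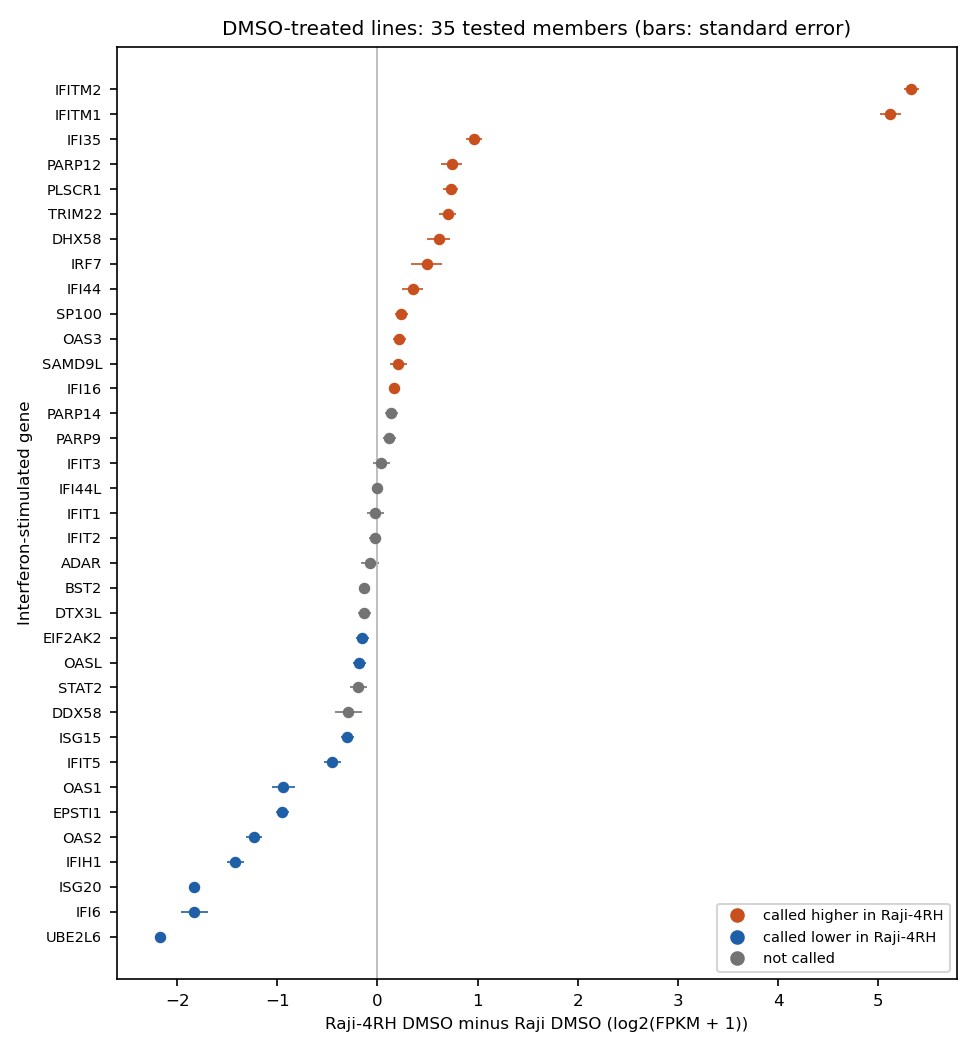
Log2 difference of Raji-4RH DMSO minus Raji DMSO for the 35 tested members, with standard errors as bars, ordered by size and coloured by the call. IFITM1 and IFITM2 stand apart at 5.12 and 5.33, and the next largest differences are 0.96 for IFI35 and -2.17 for UBE2L6.

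The pathway upstream of the members was described by a part of its genes that are no members. None of the 10 interferon genes looked at, among them IFNB1 and IFNG, exceeded 0.713 FPKM in any library, and 4 had no reads. IFNB1 had 0 reads in each DMSO library of both lines, 5 in each Raji chidamide library, and 2 and 0 in Raji-4RH chidamide. Of the 5 receptor chains placed, 4 rose with chidamide in Raji, and 3 rose and 1 fell in Raji-4RH. IFNAR1 went from 4.98 and 5.01 to 7.96 and 7.82 FPKM in Raji and from 8.87 and 9.05 to 10.2 and 10.9 in Raji-4RH. JAK1 rose in both lines, by 1.01 and 1.11 on the log2 scale, and TYK2 rose by 1.27 in Raji (limma adjusted p = 3.2e-06) with no call in Raji-4RH (adjusted p = 0.971). Of 7 tested sensors and adaptors outside the members, 1 rose and 1 fell in Raji, and 3 rose and 2 fell in Raji-4RH. MAVS fell in both lines. Of 4 tested negative regulators, 4 rose in Raji and 3 in Raji-4RH, and 0 fell. Of all genes, 31.5% rose and 28.5% fell in Raji, and 43.3% and 31.6% in Raji-4RH.
Among 34 further interferon-induced genes outside the members, 20 were tested, of which 15 rose and 0 fell in Raji and 16 rose and 0 fell in Raji-4RH, beside 31.5% of all genes higher and 28.5% lower in Raji and 43.3% and 31.6% in Raji-4RH. Some of the 20, such as LAMP3, BATF2 and CXCL9, passed the filter through chidamide libraries only. These counts are therefore a description and not support for a response. CXCL10, a chemokine that attracts T cells and the gene of this list with the largest change in Raji, went from 1.55 and 1.44 FPKM to 199 and 200 in Raji and from 0.136 and 0.12 to 1.28 and 1.15 in Raji-4RH. It was named after its values were seen.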

How the data were processed

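RNA of sorted cells was sequenced on an Illumina HiSeq instrument from an unstranded NEBNext Ultra library. The submitters' processing notes name HISAT2 2.0.5, SAMtools 1.7, HTSeq 0.9.1, DESeq2 1.22.2 and the human build GRCh38. The authors deposited FPKM per gene for each library, with no replicates pooled. The last 662 rows repeat the first 662 and were left out of library totals. FPKM times length gave whole reads for 100% of values (tolerance 0.02 reads), and totals of 13991697 to 21193441 reads set the precision. Values lie up to several rows below their labels, so they were placed by 12 blocks of rows and rescaled by gene length, which covered 90.7% to 93.2% of reads. Other rows were not used here. Each block's shift was checked against levels predicted from gene names and descriptions, and it was the best in 12 of 12.

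Groups came from the labels. One limma 3.58.1 fit with a mean-variance trend (R 4.3.3) over all 8 libraries used log2(FPKM + 1) of the 10710 genes that 2 or more libraries measured at 1 FPKM or above, and gave both chidamide effects, their difference and the DMSO difference between lines, with Benjamini-Hochberg adjustment. The steps were tested on simulated data. Values per library are given for the 8 members with the largest called change in each comparison and for 6 sensors and factors. Read ratios carry exact 95% intervals for counting error only. Alternatives were another pseudocount, other filters and scalings, limma voom on the reads, a replicate block, the rows as deposited, and each library left out. Members and lists were chosen with earlier results of these data known. One gene of the pathway is not reported here.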

Additional observations from a re-analysis of the deposited data

Results flagged for a closer look

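The chidamide effect differed between the lines, by the test of the difference itself, for 17 of the members selected by size of change or as sensors and factors. The values below are the effect in Raji-4RH minus that in Raji on the log2(FPKM + 1) scale. The effect was larger in Raji-4RH for OAS3 (1.66), IFI6 (1.65), OAS1 (1.37), OAS2 (0.71), ISG20 (0.53), UBE2L6 (0.48) and IFIH1 (0.43). These 7 had the same sign by limma voom on the reads. It was lower for IFITM1 (-1.65), TRIM22 (-1.58), IFI44L (-1.48), IFIT3 (-1.36), EPSTI1 (-1.35), OASL (-0.86), IFITM2 (-0.76), SAMD9L (-0.50), IFIT2 (-0.46) and IFI35 (-0.42). By voom the sign turned for EPSTI1 (1.02) and OASL (0.92), neither of them called, and the calls of IFITM2 (-0.52) and IFIT2 (-0.57) were lost while their sign stayed. The IFIH1 difference was not called with quantile normalization (0.12) or without any 1 of 3 libraries (0.31 to 0.41). That of IFI35 was not called without Raji DMSO replicate 1 (-0.37) or Raji chidamide replicate 1 (-0.31). Outside that selection, values by library are also given for ADAR and IFI16, whose effects were lower in Raji-4RH by -0.45 and -0.66. The ADAR call was lost with quantile normalization and in several fits with 1 library left out. The opposite case was IFI44, whose difference of 0.04 became -2.93 by voom (adjusted p = 0.0140).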

How the results depend on the processing

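Across the alternatives, 292 counts of called members stayed within 1.5 times the count reported and 28 did not. Shares of all genes stand beside some of the counts below, and the other counts only describe the members. With the 13 members whose rows needed no shift, 13 were higher and 0 lower in Raji-4RH, 13 were higher in Raji, the effects differed upward for 5 and downward for 4, and 5 were higher and 5 lower at baseline. With the rows as deposited, 19 were higher and 3 lower in Raji, and 7 had a lower effect in Raji-4RH. For log2 changes of at least 1, a pseudocount of 0.1 gave 23 higher members in Raji-4RH, 22 in Raji, 8 lower differences of effect, and 8 higher and 9 lower at baseline. The shares of all genes moved too, to 16.8%, 9.4%, 3.97%, 14.2% and 10.6% in the same order. For the same cut, limma voom gave 24, 22, and 10 higher and 9 lower at baseline, and voom with no filter, chosen after seeing the data, gave 30, 27, 8 lower differences, and 11 higher and 10 lower at baseline. Voom with the filter called 17.9% of all genes higher by at least 1 in Raji-4RH and 10.8% in Raji. Quantile normalization gave 2 members lower by at least 1 in Raji-4RH, 9 higher by at least 1 and 1 lower, IFITM2, in Raji. The shares of all genes were 6.12%, 3.21% and 32% in the same order. Leaving out 1 library at a time gave 27 to 28 higher in Raji-4RH, 28 to 32 in Raji, and 7 to 14 at baseline. The cause was not tested.

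Some single values changed sign. With quantile normalization, the Raji-4RH effect was -0.022 for EPSTI1 and -0.012 for IFI44L, the difference of effects -0.26 for IFI44 and -0.09 for DHX58, and the baseline difference -0.16 for IFIT3 and -0.12 for IFI44L. With median-centred libraries these were -0.016 for DHX58, -0.002 for IFIT3 and -0.042 for IFI44L. With a pseudocount of 0.1 the difference of effects was -1.19 for IFI44, 0.23 for DDX58 and -0.41 for DHX58. By voom it was -2.93 for IFI44, 1.01 for EPSTI1, 0.91 for OASL, 0.41 for DDX58 and -0.58 for DHX58, and the baseline was -0.32 for IFI44L, with 1.02, 0.92 and -0.34 for EPSTI1, OASL and IFI44L without a filter. STAT2 in the neighbouring block, chosen after seeing the data, gave 1.29 in Raji-4RH, 0.74 in Raji, 0.55 for their difference and 0.0065 at baseline. With 1 library left out, the ranges crossed 0 for STAT2 in Raji (-0.07 to 0.031), for the difference of effects of IFI44 (-0.14 to 0.22), DDX58 (-0.24 to 0.12) and DHX58 (-0.14 to 0.18), and for the baseline of IFIT3 (-0.031 to 0.12) and IFI44L (-0.011 to 0.016).

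A replicate block gave 27 higher and 5 lower in Raji-4RH, 31 and 0 in Raji, 9 and 16 for the difference of effects, and 12 and 10 at baseline. Of all genes, 42.8% were higher and 30.8% lower in Raji-4RH, and 30.4% and 27.3% in Raji. The shares were 25.5% and 20.4% for the difference of effects, and 40.5% and 31.8% at baseline. This block lost the calls of IFI44L in Raji-4RH and of EIF2AK2 and SAMD9L at baseline. Deviations of same-numbered libraries correlated between -0.279 and 0.166. These values cannot decide whether libraries were handled in pairs or batches, and the labels do not say. The crossed pairing, chosen after seeing the data, gave 12 and 10 at baseline, and no share of all genes is given beside these.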
